A study of Danio rerio with 2 samples.

Results

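The semaphorin, plexin, Slit, Robo and netrin genes of zebrafish are the ligands and receptors that guide growing axons and growing vessels. They were described here in the endothelial, neural and other cells of 2 single-cell libraries. The members were taken by symbol alone, as every gene whose symbol begins with sema3 to sema7, plxna to plxnd, slit1 to slit3, robo1 to robo4, unc5a to unc5d or ntn1 to ntn5. This gave 59 genes of the 36351 genes in the files, namely 4 Slits, 4 Robos, 5 netrins, 5 Unc5 receptors, 12 class 3 semaphorins, 18 semaphorins of classes 4 to 7 and 11 plexins.

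The akt mutant (aktΔ/Δ) library came from embryos with CRISPR/Cas9 alleles of akt1, akt2, akt3a and akt3b, the zebrafish genes for the kinase Akt, each with a premature stop codon. These embryos descend from adults homozygous for the akt1, akt3a and akt3b alleles and heterozygous for the akt2 allele. Whether the embryos sorted here were genotyped for akt2 is not stated in the sources used here. The paper lists experiments in which such embryos were not genotyped, and the sequencing is not among them. The second library came from wild-type (WT) embryos. Both were made at 24 hpf from dissociated embryo tissue sorted for the red fluorescence of the kdrl:mCherry transgene, which both groups carry and which is driven by the promoter of an endothelial Vegf receptor gene, and the number of embryos pooled is not given in the sources used here. Each genotype is thus 1 library. No difference between the genotypes has a replicate check, no test was made and no p-value is given, and every interval below covers counting error only.

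Slit proteins are secreted and act through Robo receptors, with which they repel axons at the midline of the nervous system. Netrins are secreted or matrix-bound and attract or repel through receptors that include the Unc5 family. Class 3 semaphorins are secreted and act through plexins, most of them with neuropilin co-receptors, whereas semaphorins of classes 4 to 7 are largely held at the membrane and bind plexins directly. In blood vessels the same families steer sprouts along the body axis, and plxnd1 and robo4 are known as receptors of the endothelium.

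The akt mutant library held 9464 cell barcodes and 91736598 UMIs (unique molecular identifiers, each counted as 1 captured mRNA), or 8247 UMIs in the median cell. The WT library held 16400 barcodes and 128759603 UMIs, or 5930.5 in the median cell. A total of 225 barcodes occurred in both libraries, which is 2.38% of the akt mutant barcodes and 1.37% of the WT barcodes. Clustering without the members gave 19 clusters, of which 7 were high in both kdrl and cdh5 and were taken as endothelial, with 6528 akt mutant and 8825 WT cells. The labels call all cells endothelial. In the neural-like cluster, however, kdrl was at 18.3 CPM (UMIs per 1000000 UMIs of the same cells) in akt mutant and 49.4 CPM in WT, against 281 CPM in akt mutant and 349 CPM in WT endothelial clusters. A pair of low-depth clusters was left unnamed. One of them, with median UMIs of 1492 in akt mutant and 1081 in WT, was endothelial by the rule, and the other, with 688 in akt mutant and 877 in WT, was not, although its kdrl level was 200.3 CPM in akt mutant and 240.4 CPM in WT. The 17 named or gene-led clusters are called clusters of usual depth below, 6 of them endothelial. A cluster counted as low-depth only if its median was far under that of the library in both libraries. In akt mutant alone the skeletal muscle-like and notochord-like clusters were also shallow, with medians of 2049.5 and 2232 UMIs. A gene-led name takes a gene from those most raised in the cluster over all other cells, not always the first. The foxl2b-led and lef1-led clusters both had foxl2b as their first such gene and shared foxf2a and exoc3l2a. The member sema3ga was itself among the genes most raised in the lef1-led cluster. The cluster called fibroblast-like also had 5 neural crest markers and 5 of 7 notochord markers. That called skeletal muscle-like also had 5 of 5 heart muscle markers and 6 of 10 fibroblast markers. Of the mutated genes, akt2 was at 9.02 CPM in akt mutant and 13.2 CPM in WT endothelial clusters, which is -0.55 (-0.72 to -0.38) as a log2 ratio with its 95% interval. For akt3b that value was -0.14 (-0.33 to 0.05), akt3a had 43 UMIs in akt mutant and 37 in WT cells, and akt1 had 1 and 2, so that akt1 and akt3a gave no direction.

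In the endothelial clusters of both libraries together, 27 members had at least 200 UMIs, 8 had at least 50 but under 200, 23 had 1 to 49 and 1 member, the netrin receptor gene unc5db, had 0, which allows up to 0.053 CPM in akt mutant and 0.0566 CPM in WT cells. The members summed to 58540 UMIs there, and 3 of them, robo4, slit3 and sema3ab, made up 50.4% of these. Levels rest on tags at the 3′ end of transcripts and were therefore not divided by gene length. The map of levels by cluster shows sema3ab bright across the endothelial clusters of both libraries, slit3 brightest in the vein-like cluster and robo4 dimmest in the endocardium-like cluster among them.

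**Figure D1:**
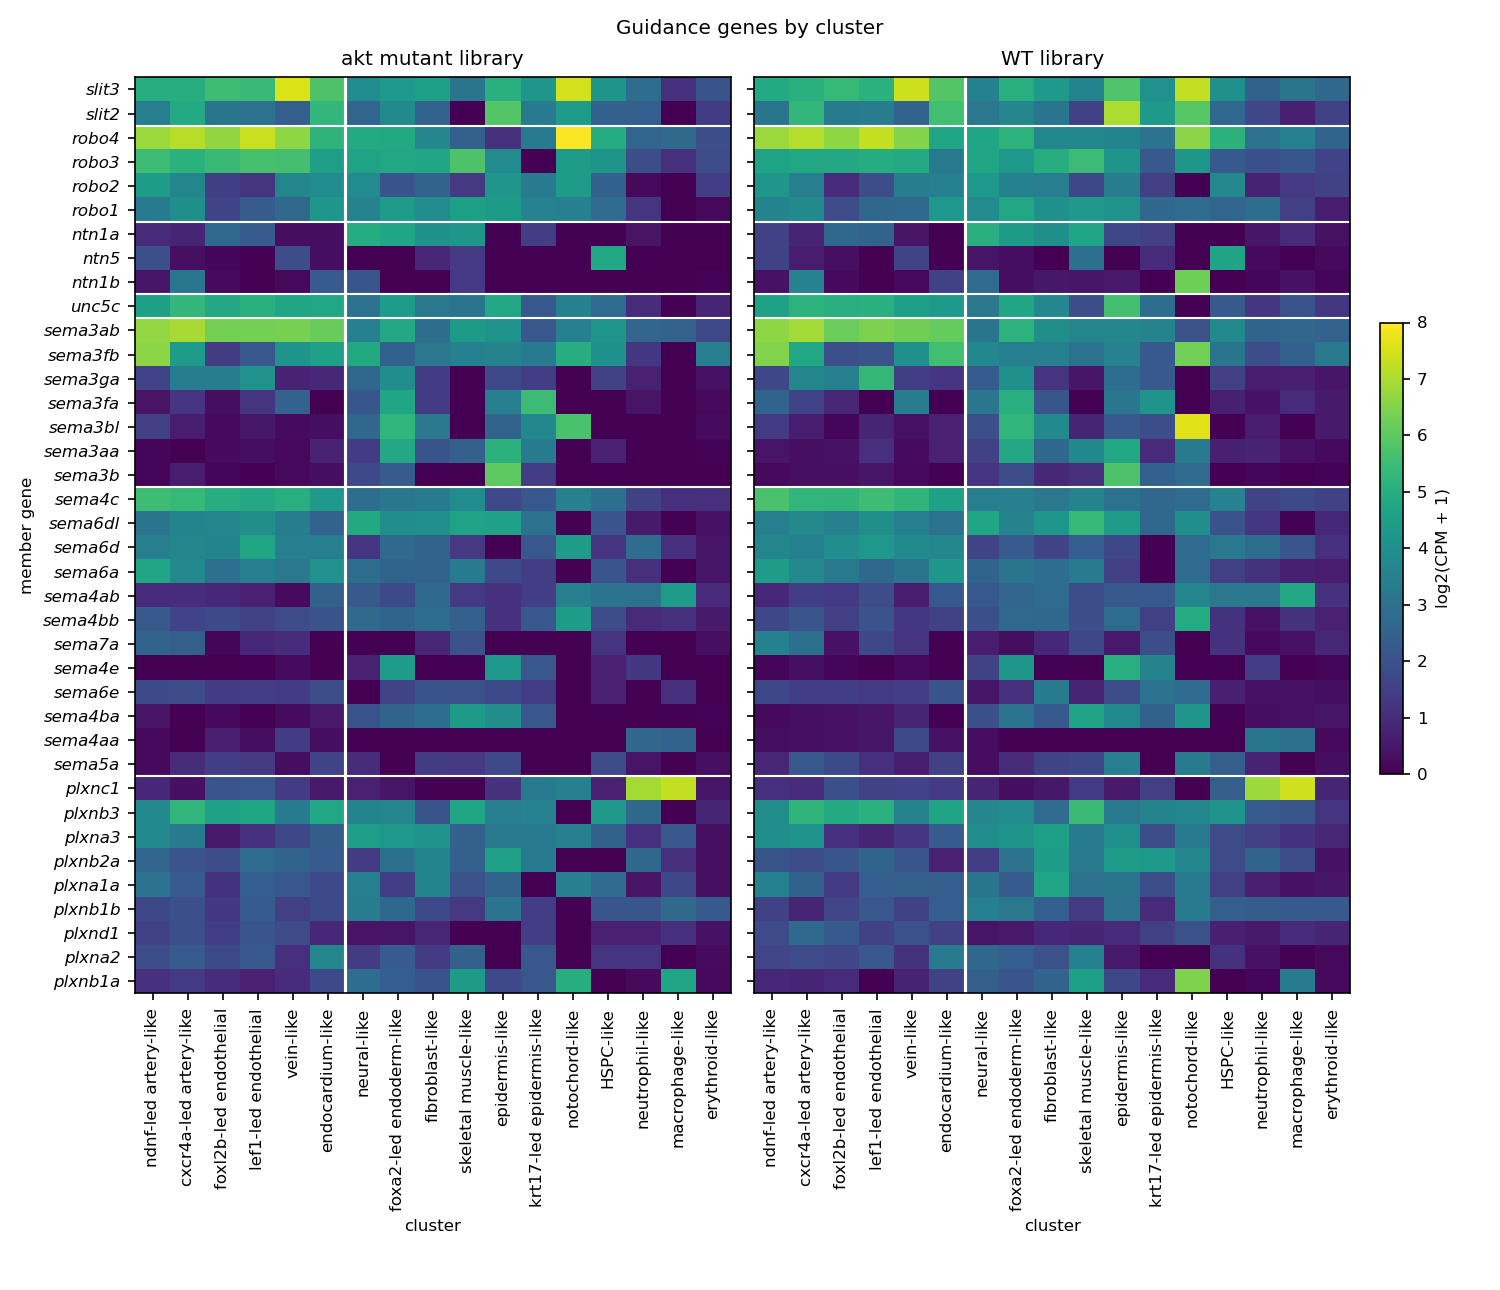
Levels of the members with at least 200 UMIs over all cells, as log2(CPM + 1), with 1 row per gene grouped by role and 1 column per cluster, in the akt mutant library (left) and the WT library (right). Endothelial clusters stand left of the white vertical line and the 2 low-depth clusters are left out. In the endothelial clusters shown sema3ab is no lower than 67.4 CPM, whereas slit3 goes down to 28.6 CPM in the ndnf-led cluster and robo4 to 25.3 CPM in the endocardium-like cluster, both in WT. High levels of plxnc1 are seen in the macrophage-like and neutrophil-like clusters (113 to 169 CPM).

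Among the ligands, slit3 (LL0000028912) supplied 88.6% of Slit UMIs in akt mutant and 86.9% in WT endothelial clusters. Among endothelial clusters it was highest in the vein-like cluster, at 187 CPM in akt mutant and 167 CPM in WT. In the other endothelial clusters of usual depth slit3 lay between 28.6 CPM in the WT ndnf-led artery-like cluster and 57.4 CPM in the WT endocardium-like cluster, so that the vein-like cluster stood apart from all of them in both libraries. Outside endothelium the notochord-like cells had 174 CPM from 17 UMIs in akt mutant and 154 CPM from 52 UMIs in WT. Erythroid-like cells, which should lack slit3 and serve as a rough measure of free RNA, had 3.21 CPM in akt mutant and 5.55 CPM in WT. Their median was 29979 UMIs in akt mutant and 20467 in WT, against 8453 and 5623 in endothelial cells. The same amount of free RNA is thus a smaller part of their UMIs. Their CPM, and their shares at equal depth below, may therefore understate free RNA in other cells.

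The paralog slit2 (LL0000028911) had another distribution. It was at 38.2 CPM in akt mutant and 47.0 CPM in WT endocardium-like cells, and at 28.9 CPM in akt mutant and 38.0 CPM in WT cells of the cxcr4a-led artery-like cluster. The intervals of these clusters overlap in both libraries, and in the 4 other endothelial clusters of usual depth slit2 did not exceed 9.69 CPM. Outside the endothelium slit2 was highest in the epidermis-like cluster, at 57.2 CPM from 47 UMIs in akt mutant and 129 CPM from 278 UMIs in WT. The remaining Slits, slit1a and slit1b, had 11 and 4 UMIs in all endothelial clusters.

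All 4 Robo receptor genes were detected in endothelial clusters, and they are compared here over the 6 of usual depth. The endothelial receptor gene robo4 (LL0000023850) was highest in the lef1-led cluster, at 162 CPM in akt mutant and 153 CPM in WT, and next in the cxcr4a-led cluster, at 141 CPM in akt mutant and 136 CPM in WT. It was lowest in the endocardium-like cluster, at 36.0 CPM in akt mutant and 25.3 CPM in WT. The endocardium-like cluster was the lowest of the 6 also for robo3 (LL0000023849), whose product is known from the crossing of hindbrain axons, at 21.6 CPM in akt mutant and 8.43 CPM in WT. By contrast, robo1 (LL0000023847), a receptor for Slits in axons, was highest in endocardium-like cells, at 16.8 CPM in akt mutant and 18.1 CPM in WT, with an interval that overlaps that of the cxcr4a-led cluster. A related receptor gene, robo2 (LL0000023848), was highest in the ndnf-led artery-like cluster, at 20.5 CPM in akt mutant and 17.7 CPM in WT, and lowest in the foxl2b-led and lef1-led clusters, where it did not exceed 2.71 CPM. For each of the 4 Robo genes the highest of the 6 clusters was the same in both libraries, but robo1 and robo2 each had another than robo3 and robo4. The lead of the lef1-led cluster was narrow for robo3. It had 49.9 CPM against 49.3 CPM in vein-like cells in akt mutant, and 29.8 CPM against 28.7 CPM in WT. For robo4 its interval overlaps that of the cxcr4a-led cluster in both libraries.

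**Figure D2:**
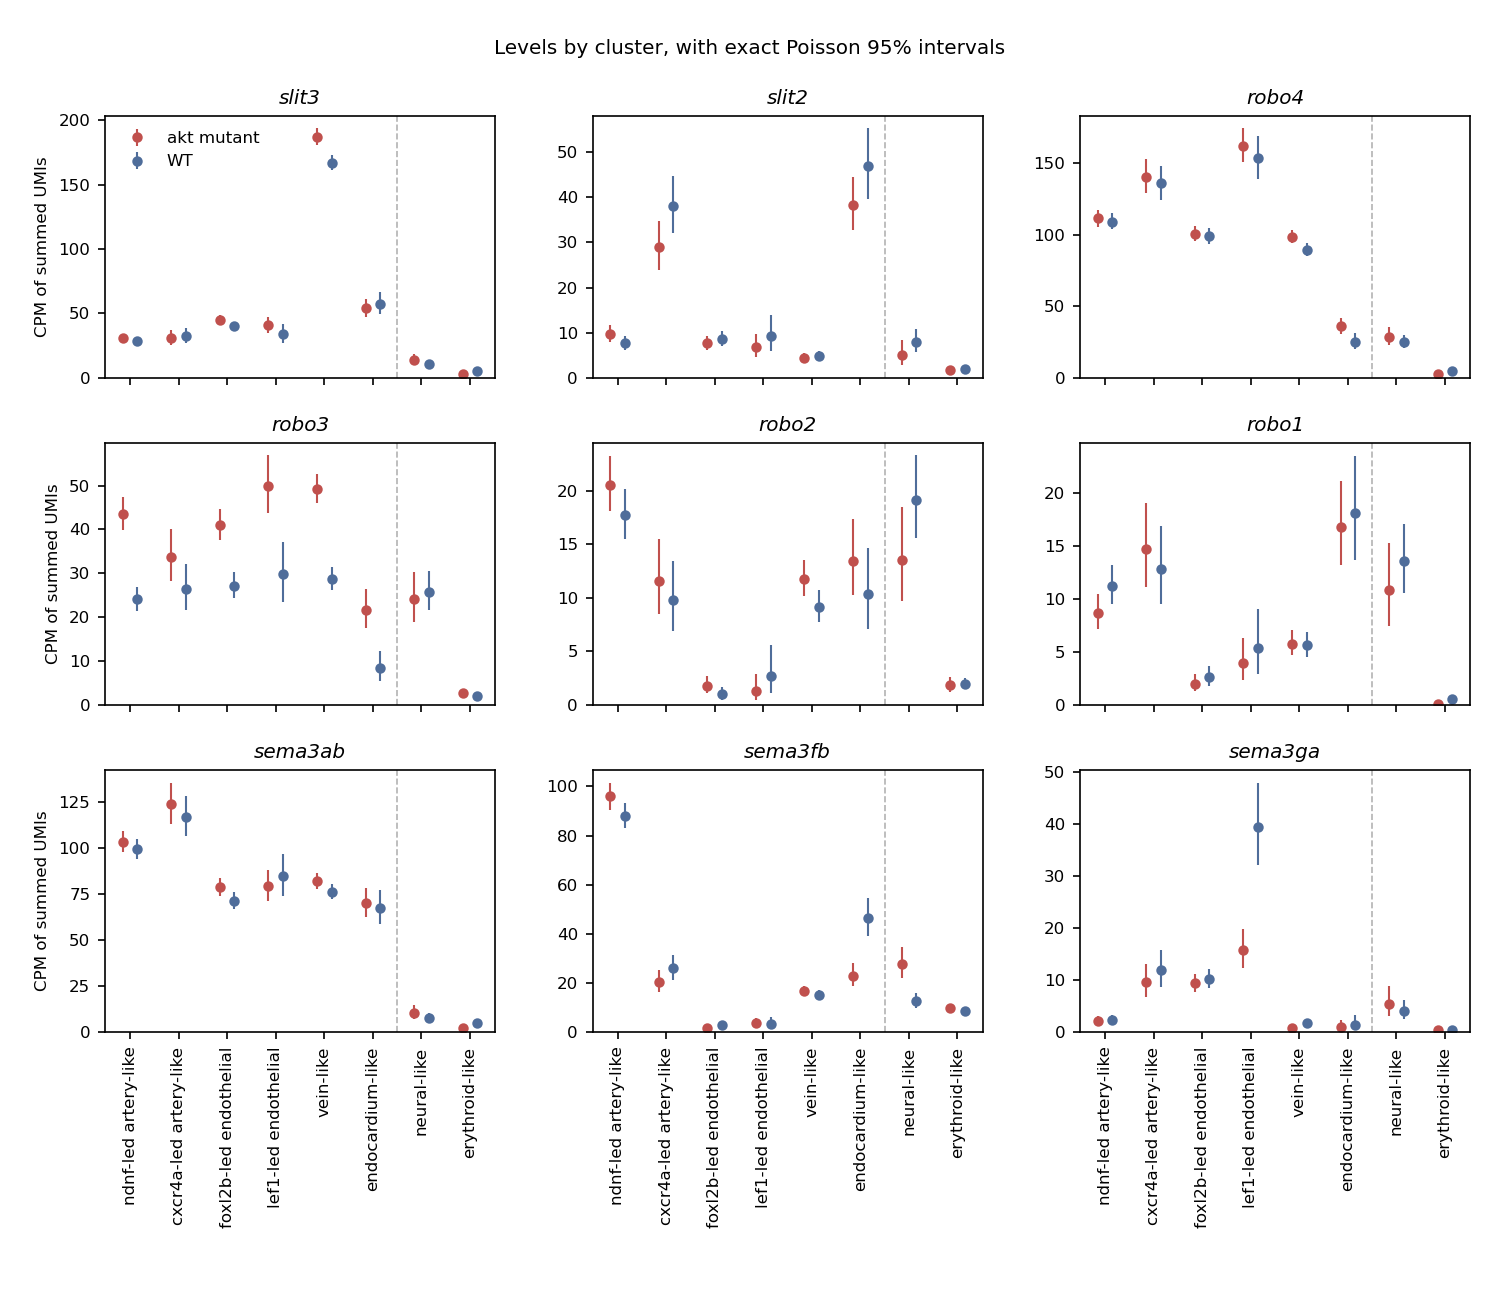
CPM of summed UMIs (linear axis) of slit3, slit2, the 4 Robo genes, sema3ab, sema3fb and sema3ga by cluster, with akt mutant points left of WT points and exact Poisson 95% intervals; the neural-like and erythroid-like clusters stand right of the dashed line. The vein-like cluster stands above the rest for slit3 (187 and 167 CPM), the ndnf-led cluster for sema3fb (95.9 and 88.1 CPM) and the lef1-led cluster for sema3ga (15.7 and 39.4 CPM), each given for akt mutant first and WT second, and akt mutant points lie above WT points for robo3 in each endothelial cluster shown.

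Netrins were sparse in endothelium, with a summed level of 4.78 CPM over the 5 genes in akt mutant and 4.68 CPM in WT. The secreted netrin gene ntn1a (LL0000020685) was highest among endothelial clusters in the foxl2b-led cluster, at 5.67 CPM in akt mutant and 5.43 CPM in WT, with an interval that overlaps that of the lef1-led cluster. Its paralog ntn1b (LL0000020686) was at 7.74 CPM in akt mutant and 10.8 CPM in WT cells of the cxcr4a-led cluster, the highest of the endothelial clusters of usual depth. Outside endothelium ntn1b was at 74.0 CPM in the 51 WT notochord-like cells and had 0 UMIs in the 19 of akt mutant, whose median was 2232 UMIs per cell. With so few cells a count of 0 does not show that ntn1b was absent there. In the vein-like and foxl2b-led clusters ntn1b had 2 UMIs per library. Another netrin gene, ntn5 (LL0000020689), was highest in the HSPC-like cluster (HSPC, hematopoietic stem and progenitor cells), at 27.1 CPM in akt mutant and 24.6 CPM in WT, and did not exceed 2.85 CPM in endothelial clusters of usual depth. Of the netrin receptors, unc5c (LL0000031629) gave 98.6% of Unc5 UMIs in the endothelial clusters of both libraries. Its level was at 38.2 CPM in akt mutant and 35.2 CPM in WT in the cxcr4a-led cluster, and between 18.8 and 32.5 CPM in the 5 others of usual depth.

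The class 3 semaphorins summed to 125 CPM in akt mutant and 130 CPM in WT endothelial clusters. Spread over all endothelial clusters was sema3ab (LL0000024422), one of the zebrafish counterparts of the axon repellent Sema3A, at 124 CPM in akt mutant and 117 CPM in WT in the cxcr4a-led cluster and no lower than 67.4 CPM in any of the 6. Its paralog sema3aa (LL0000024421) had 28 UMIs in all endothelial clusters. A different pattern was seen for sema3fb (LL0000024429), a counterpart of Sema3F, which was at 95.9 CPM in akt mutant and 88.1 CPM in WT cells of the ndnf-led artery-like cluster, against 1.71 CPM in akt mutant and 2.83 CPM in WT cells of the foxl2b-led cluster. The second artery-like cluster, led by cxcr4a, had 20.4 CPM of sema3fb in akt mutant and 25.9 CPM in WT, so the artery-like clusters were not alike. Erythroid-like cells had 9.62 CPM of sema3fb in akt mutant and 8.43 CPM in WT, above the foxl2b-led cluster, so that they do not serve as a measure of free RNA for this gene. The paralog sema3fa (LL0000024428) was highest among endothelial clusters in vein-like cells, at 4.75 CPM in akt mutant and 9.52 CPM in WT, and had 0 UMIs in endocardium-like cells. A further class 3 gene, sema3ga (LL0000024430), was highest in the lef1-led cluster, at 15.7 CPM in akt mutant and 39.4 CPM in WT, and did not exceed 1.82 CPM in vein-like cells.

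Of the membrane-bound semaphorins, sema4c (LL0000024437) supplied 43.2% of the UMIs of classes 4 to 7 in akt mutant and 45.7% in WT endothelial clusters. It was spread over all of them, with 44.3 CPM in akt mutant and 51.3 CPM in WT in the ndnf-led cluster and 19.1 CPM in akt mutant and 22.7 CPM in WT in the endocardium-like cluster. The transmembrane gene sema6a (LL0000024445) was also highest in the ndnf-led cluster, at 25.7 CPM in akt mutant and 20.5 CPM in WT. Next for sema6a was the endocardium-like cluster, at 15.5 CPM in akt mutant and 17.8 CPM in WT. The ndnf-led cluster was highest also for sema7a (LL0000024451), whose protein is anchored to the membrane by a lipid, at 4.80 CPM in akt mutant and 10.4 CPM in WT. The other artery-like cluster, led by cxcr4a, was close for sema7a in akt mutant, at 4.38 CPM, and had 6.68 CPM in WT. In contrast, sema6d (LL0000024448) was highest in the lef1-led cluster, at 25.0 CPM in akt mutant and 18.2 CPM in WT.

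Among the plexins, the receptors of semaphorins, plxnb3 (LL0000022187) was highest in the cxcr4a-led cluster of the 6 endothelial clusters, at 37.6 CPM in akt mutant and 36.7 CPM in WT, and lowest in vein-like cells, at 8.69 CPM in akt mutant and 10.98 CPM in WT. The A-type plexin gene plxna2 (LL0000022180) was highest of the 6 in endocardium-like cells, at 11.6 CPM in akt mutant and 9.07 CPM in WT, against at most 3.87 CPM in the 5 others. The endothelial receptor gene plxnd1 (LL0000022189) was between 0.91 and 5.65 CPM in the 6 clusters of usual depth. In the low-depth endothelial cluster, however, it was at 60.4 CPM from 87 UMIs in akt mutant and 86.3 CPM from 75 UMIs in WT. The C-type plexin gene plxnc1 (LL0000022188) was at 151 CPM in akt mutant and 169 CPM in WT macrophage-like cells and at 120 CPM in akt mutant and 113 CPM in WT neutrophil-like cells, and did not exceed 3.54 CPM in endothelial clusters.

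The cluster in which a member was highest was the same in both libraries for 28 of the 35 members with at least 50 UMIs in the 6 endothelial clusters. These were the lef1-led and ndnf-led clusters for 7 members each, the endocardium-like cluster for 6, the cxcr4a-led cluster for 4, the vein-like cluster for 3 and the foxl2b-led cluster for 1. Over all clusters of usual depth the highest was shared for 26 of 44 members. The share over all genes was not computed, so these counts cannot be set against it. Some leads were narrow, as for robo3 in akt mutant, at 49.9 CPM in lef1-led and 49.3 CPM in vein-like cells.

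Endothelial clusters were next set against all other cells. Of the 45 members with at least 50 UMIs, 15 were at least 2-fold higher in endothelial clusters in both libraries, where 21.2% of all genes were, and 14 were at least 2-fold lower, where 21.2% of all genes were. The higher ones comprised the ligand genes slit3, sema3ab, sema3fb, sema3ga, sema4c, sema6a, sema6d, sema6e and sema7a and the receptor genes robo2, robo3, robo4, unc5c, plxnb3 and plxnd1. In the akt mutant library robo4 was at 105 CPM in endothelial clusters against 11.7 CPM in other cells, a log2 ratio of 3.17 (3.03 to 3.32), and in the WT library at 99.4 CPM against 12.8 CPM, a ratio of 2.96 (2.86 to 3.06). The ratio of sema3ab was 3.35 (3.18 to 3.52) in akt mutant and 3.06 (2.95 to 3.18) in WT. For sema4c it was 3.15 (2.89 to 3.41) in akt mutant and 2.95 (2.79 to 3.11) in WT. The lower members included 6 of the 10 measured class 3 semaphorins, among them sema3aa, sema3b and sema3bl. The minimum of 50 UMIs was summed over endothelial and other cells. Thus sema3aa, with 28 endothelial UMIs of 405, and sema3b, with 18 of 242, reached it only through the other cells, where they were high. A gene as low in endothelium but not high elsewhere was not measured, so the count of lower members follows in part from the minimum. Other lower members were the membrane semaphorin gene sema4e, with 5 UMIs in endothelial clusters of each library against 89 in other akt mutant and 196 in other WT cells, and plxnc1, at -3.78 (-4.09 to -3.48) in akt mutant and -3.83 (-4.14 to -3.54) in WT. Without the erythroid-like cells, the deepest of the other cells with a median of 29979 UMIs in akt mutant and 20467 in WT, 10 members were higher, and plxnb3, robo2, robo3, sema3ga and sema6e were not among them, while 15 were lower. With equal weight of cells 9 were higher, and plxnb3, robo2, robo3, sema3fb, sema3ga and sema6d were not among them. With endothelial cells taken by a UMI of kdrl or cdh5, plxnd1, robo2 and sema6e were no longer higher. The median log2 ratio of the 45 members was 0.51 in akt mutant and 0.40 in WT, against 0.12 and 0.14 over all genes. Of the co-receptor genes outside the members, such as the neuropilins, 7 of 12 measured were higher and 0 lower, and of 35 measured effectors 15 were higher and 8 lower.

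Some ligand genes were highest in single clusters outside endothelium. The secreted gene sema3b was at 63.2 CPM in akt mutant and 53.8 CPM in WT epidermis-like cells, from 52 and 116 of its 242 UMIs. Its relative sema3bl was highest in notochord-like cells, at 51.2 CPM from 5 UMIs in 19 akt mutant cells and 198 CPM from 67 UMIs in 51 WT cells. In the foxa2-led endoderm-like cluster sema3bl was at 37.6 CPM in akt mutant and 37.8 CPM in WT. For sema4ab, a membrane semaphorin gene, macrophage-like cells had 19.9 CPM in akt mutant and 27.4 CPM in WT. The receptor gene robo3 was highest of all clusters in skeletal muscle-like cells, at 53.8 CPM from 36 UMIs in akt mutant and 43.6 CPM from 113 UMIs in WT. That cluster also had heart muscle and fibroblast markers, so the level cannot be assigned to skeletal muscle alone.

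In the neural-like cluster, with 412 akt mutant and 958 WT cells, 11 of 38 members with at least 50 UMIs were at least 2-fold higher than in endothelial clusters in both libraries, against 16.7% of all genes, and 13 were at least 2-fold lower, against 22.5%. Among the ligands ntn1a was at 30.2 CPM in neural-like cells against 2.05 CPM in endothelial clusters of the akt mutant library, and at 31.0 CPM against 2.21 CPM in the WT library, log2 ratios of 3.88 (3.47 to 4.29) and 3.81 (3.46 to 4.17). Its paralog ntn1b had ratios of 1.70 (0.57 to 2.68) in akt mutant and 2.46 (1.78 to 3.12) in WT. The class 3 gene sema3gb, with 13 neural-like UMIs in akt mutant and 19 in WT, had ratios of 4.16 (2.95 to 5.36) and 4.27 (3.09 to 5.54). The other ligand genes higher there were sema3bl, sema4ab, sema4ba and sema6dl. The calls of sema3bl and sema4ab were lost with endothelial cells taken by a UMI of kdrl or cdh5. Those of sema3gb and sema4ba were lost with libraries thinned to the same depths, and that of sema6dl with equal weight of cells. Of the receptors the highest ratio was that of plxna4, a plexin gene known from sensory axons, with 24 UMIs in neural-like against 6 in endothelial cells of the akt mutant library and 56 against 6 in the WT library, ratios of 6.26 (4.94 to 7.85) and 6.57 (5.35 to 8.07). The others were plxna3, plxnb1a and plxnb1b. The minimum of 50 UMIs was summed over both classes. With 12, 24 and 33 endothelial UMIs, plxna4, sema3gb and sema4ba reached it only with their neural-like UMIs. Genes as low in endothelium but not high in neural-like cells were not measured, so the high ratios of these 3 follow in part from the minimum.

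Lower in the neural-like cluster were sema3ab, at -3.09 (-3.66 to -2.58) in akt mutant and -3.45 (-3.93 to -2.9998) in WT, slit3, at -2.64 (-3.13 to -2.20) in akt mutant and -2.90 (-3.31 to -2.51) in WT, and robo4, at -1.86 (-2.19 to -1.56) in akt mutant and -1.99 (-2.25 to -1.74) in WT. The remaining ones were ntn5, plxnc1, plxnd1, sema4aa, sema4c, sema6a, sema6d, sema6e, sema7a and unc5c. The calls of plxnc1, with 2 neural-like UMIs in akt mutant and 4 in WT, of sema4aa, with 0 in akt mutant and 1 in WT, and of sema6a, with 18 in akt mutant and 26 in WT, were lost with equal weight of cells, and that of sema6a also with endothelial cells taken by a UMI of kdrl or cdh5. The axonal receptor genes robo1 and robo2 did not pass the fold in both libraries, robo1 at 0.65 (0.08 to 1.17) in akt mutant and 0.81 (0.43 to 1.18) in WT. Values of robo3 in neural-like cells were 24.1 CPM in akt mutant and 25.8 CPM in WT, so its ratio to endothelial clusters was -0.82 (-1.18 to -0.48) in akt mutant and -0.00 (-0.27 to 0.25) in WT. With TMM scaling, which moved the median of all genes by -0.34, plxna3 and sema6dl were no longer higher and plxnb2a and plxnb3 were lower as well. The median log2 ratio of the 38 members was -0.26 in akt mutant and -0.27 in WT, against -0.05 and -0.03 over all genes, and the co-receptors had 3 higher and 6 lower of 12.

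**Figure D3:**
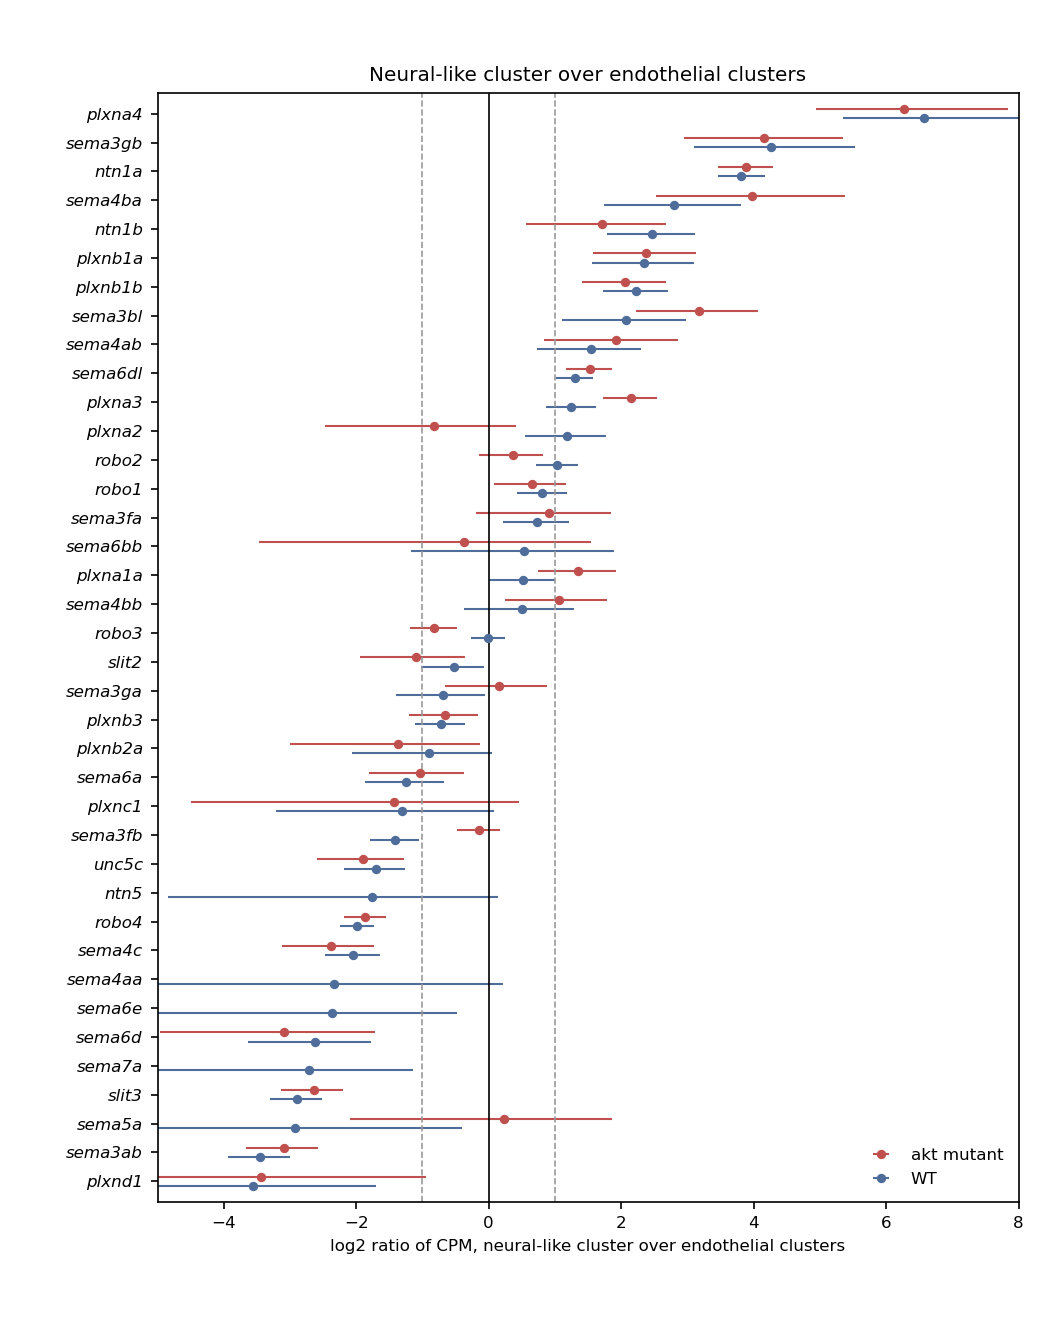
Log2 ratio of CPM in the neural-like cluster over endothelial clusters for each of the 38 members, in the akt mutant library (red) and the WT library (blue), with 95% intervals from exact binomial intervals and dashed lines at 2-fold. Points for plxna4 lie at 6.26 and 6.57 and for ntn1a at 3.88 and 3.81, akt mutant first; some intervals run past the axis, and ntn5, sema4aa, sema6e and sema7a have no akt mutant point because they had 0 UMIs in neural-like cells there.

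Within endothelial clusters, artery cells were taken as those in which notch3, dll4 and efnb2a were all detected, and vein cells as those in which lyve1b, stab2 and dab2 were. Cells in which all markers of both lists were detected were put in neither class. There were 401 artery and 2136 vein cells in the akt mutant library and 487 artery and 3106 vein cells in the WT library. Both classes were chosen by detection and were deeper than the endothelial median, and the artery cells still had the vein gene stab2 at 354 CPM in akt mutant and 266 CPM in WT, against 844 CPM in akt mutant and 1006 CPM in WT vein cells. The part of stab2 RNA in artery cells in these ratios was not tested.

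Of 31 members with at least 50 UMIs in these cells, 7 were at least 2-fold higher in artery than in vein cells in both libraries, against 3.88% of all genes, and 3 were at least 2-fold lower, against 5.25%. The higher members were the ligand genes sema3fb, sema6a and sema7a and the receptor genes robo1, robo2, plxna1a and plxna3. The lower ones were all ligand genes, slit3, ntn1a and sema3ga. The median log2 ratio of the 31 members was 0.21 in akt mutant and 0.25 in WT, against 0.00 and -0.06 over all genes.

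In the akt mutant library sema3fb was at 88.5 CPM in artery against 13.1 CPM in vein cells, and in the WT library at 96.4 CPM against 14.5 CPM, log2 ratios of 2.76 (2.55 to 2.98) and 2.74 (2.52 to 2.95). With every cell thinned to 1000 UMIs, 10.0% (7.26 to 13.4) of akt mutant and 8.44% (6.12 to 11.3) of WT artery cells had a UMI of sema3fb, against 1.503% of akt mutant and 1.32% of WT vein cells and 1.82% of akt mutant and 1.42% of WT erythroid-like cells. In the foxl2b-led cluster, the lowest endothelial cluster for sema3fb, the thinned share was 0.347% in akt mutant and 0.136% in WT, below that in vein cells. Without thinning the shares were 52.9% in akt mutant and 43.7% in WT artery cells, 10.1% in akt mutant and 7.53% in WT vein cells and 19.6% in akt mutant and 13.8% in WT erythroid-like cells.

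The A-type plexin gene plxna3 (LL0000022181) was at 13.2 CPM in artery against 1.40 CPM in vein cells of the akt mutant library and at 15.4 CPM against 1.63 CPM in the WT library, a ratio of 3.24 in both (2.61 to 3.89 and 2.62 to 3.87). Fewer UMIs lay behind sema7a, with 27 in artery and 8 in vein cells of the akt mutant library and 47 and 27 in the WT library, giving ratios of 4.04 (2.86 to 5.39) and 3.26 (2.54 to 3.99). For robo2 the levels were 22.5 CPM in artery and 4.84 CPM in vein cells in akt mutant and 16.6 CPM and 5.01 CPM in WT, ratios of 2.22 (1.82 to 2.61) and 1.73 (1.27 to 2.18). The ratio of robo1 was 1.63 (1.15 to 2.0998) in akt mutant and 1.95 (1.44 to 2.44) in WT. That of sema6a was 1.56 (1.21 to 1.90) in akt mutant and 1.37 (0.99 to 1.74) in WT, and that of plxna1a, another A-type plexin gene, 1.18 (0.53 to 1.79) in akt mutant and 1.80 (1.27 to 2.32) in WT.

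On the vein side slit3 was at 54.9 CPM in artery against 122 CPM in vein cells of the akt mutant library, and at 37.4 CPM against 118 CPM in the WT library, log2 ratios of -1.15 (-1.34 to -0.97) and -1.65 (-1.90 to -1.42). The lower calls of ntn1a rested on 5 artery UMIs in akt mutant and 6 in WT, and those of sema3ga on 12 and 10. Just outside the fold was slit2, at 1.103 (0.68 to 1.51) in akt mutant and 0.996 (0.53 to 1.45) in WT. With at least 500 detected genes per cell, with 2 of 3 markers, with equal weight of cells or without the cells of highest doublet score, slit2 passed the fold. The broad endothelial members did not pass it, with robo4 at 0.17 (0.03 to 0.30) in akt mutant and 0.35 (0.21 to 0.49) in WT, robo3 at 0.02 (-0.20 to 0.23) in akt mutant and -0.21 (-0.54 to 0.12) in WT, and unc5c at -0.05 (-0.32 to 0.22) in akt mutant and -0.24 (-0.57 to 0.07) in WT. The co-receptor list outside the members, of which 12 of 16 genes were measured, had 3 higher (neo1b, nrp1a and rgma) and 4 lower (flrt1b, flrt2, nrp2a and nrp2b). The neuropilin gene nrp2a was at 10.5 CPM in artery against 89.0 CPM in vein cells in akt mutant and at 9.91 CPM against 121 CPM in WT.

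With clusters in place of detected markers, that is the 2 artery-like clusters against the vein-like cluster, sema3fb, sema6a, sema7a and plxna3 stayed higher and slit3 stayed lower, but plxna1a, robo1 and robo2 were no longer higher, and ntn1a at 2.002 in akt mutant and 2.27 in WT and sema3ga at 2.35 in akt mutant and 1.29 in WT turned to the artery side. With clusters slit2, ntn1b and sema3bl were newly higher as well, and sema3fa and sema4aa were newly lower. The calls of ntn1a and sema3ga were also lost without the cells of highest doublet score, and that of sema3ga without the barcodes found in both libraries.

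**Figure D4:**
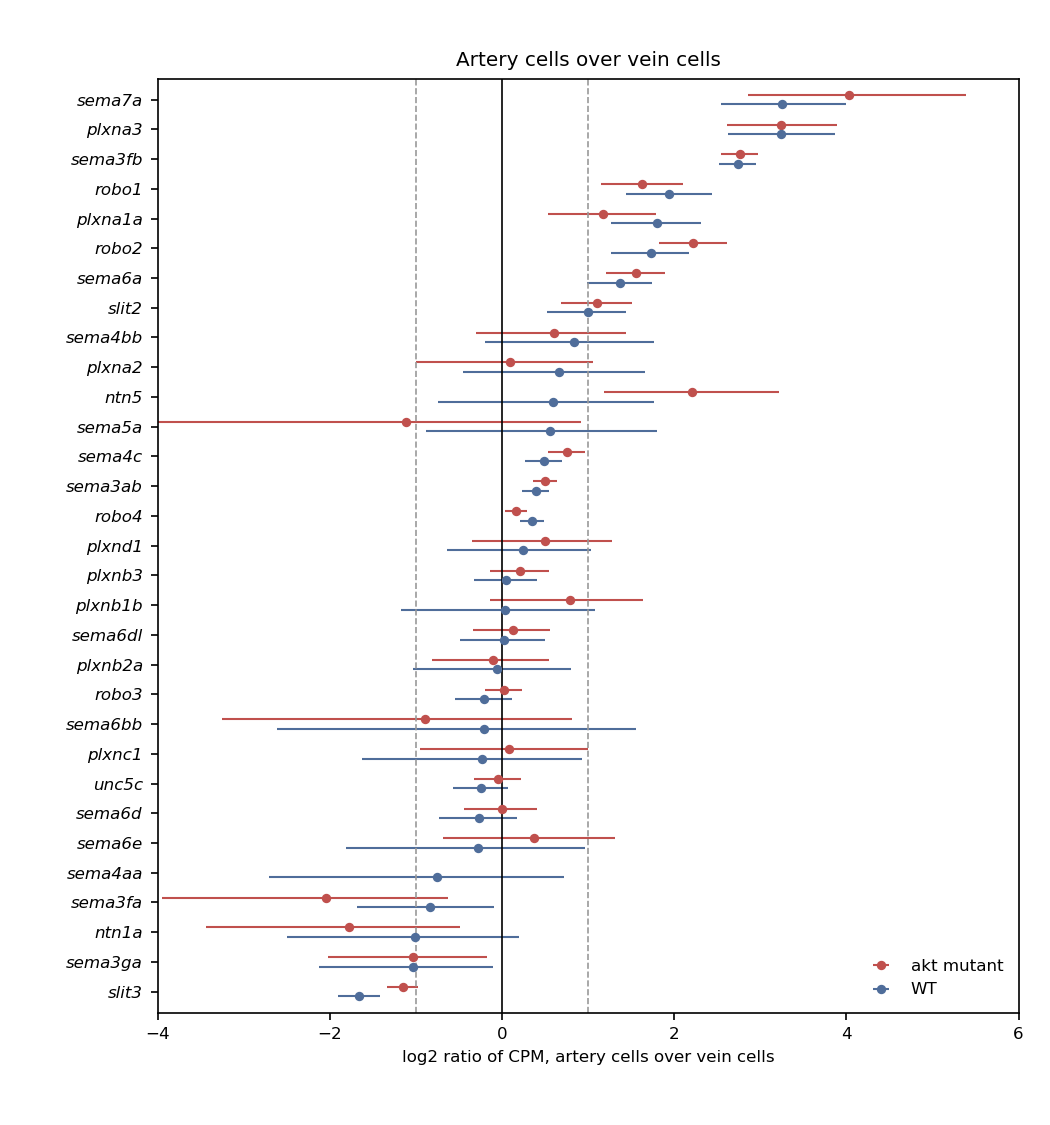
Log2 ratio of CPM in artery cells over vein cells for each of the 31 members, in the akt mutant library (red) and the WT library (blue), with 95% intervals from exact binomial intervals and dashed lines at 2-fold. Both points of sema7a (4.04 and 3.26), plxna3 (3.24 and 3.24) and sema3fb (2.76 and 2.74) lie far right and both of slit3 (-1.15 and -1.65) left of the lines, akt mutant first; some intervals run past the axis, and sema4aa has no akt mutant point because it had 0 UMIs in artery cells there.

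Between the genotypes most members were within 1.5-fold in endothelial clusters. Of 35 members with at least 50 UMIs, 1 was at least 1.5-fold higher in akt mutant than in WT, against 6.31% of all genes, and 3 were at least 1.5-fold lower, against 12.5%. With so few members past the fold, these counts do not set the members apart from all genes. The median log2 ratio was -0.10 for the members and -0.07 for all genes.

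The higher member was robo3. Its level was 42.6 CPM (40.9 to 44.3) from 2412 UMIs in akt mutant and 25.9 CPM (24.5 to 27.3) from 1373 UMIs in WT, a log2 ratio of 0.72 (0.62 to 0.81). At 1000 UMIs per cell, which left out 390 akt mutant and 433 WT cells, 3.70% (3.24 to 4.20) of akt mutant and 2.30% (1.99 to 2.64) of WT endothelial cells had a UMI of robo3. Among erythroid-like cells it was 0.497% (0.10 to 1.44) in akt mutant and 0.158% (0.03 to 0.46) in WT, from 3 cells in each library. Without thinning 25.1% of akt mutant and 12.9% of WT endothelial cells had a UMI of robo3, against 6.22% of akt mutant and 3.86% of WT erythroid-like cells. The ratio was above 0 in each endothelial cluster of usual depth, at 1.36 (0.72 to 2.05) in endocardium-like, 0.86 (0.65 to 1.06) in ndnf-led, 0.78 (0.62 to 0.94) in vein-like, 0.75 (0.37 to 1.14) in lef1-led and 0.60 (0.40 to 0.80) in foxl2b-led cells. Only in the cxcr4a-led cluster, at 0.35 (-0.03 to 0.74), did its interval reach 0 among these 6. In the neural-like cluster the ratio of robo3 was -0.10 (-0.54 to 0.32) and in the foxa2-led endoderm-like cluster it was 0.58 (0.10 to 1.05). It was 0.34 (-0.24 to 0.90) in erythroid-like, 0.30 (-0.28 to 0.86) in skeletal muscle-like and -0.25 (-0.90 to 0.37) in fibroblast-like cells.

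The 3 lower members were all semaphorins. The secreted ligand gene sema3fa was at 1.80 CPM from 102 UMIs in akt mutant and 4.73 CPM from 251 UMIs in WT, a log2 ratio of -1.39 (-1.74 to -1.06), and in the ndnf-led cluster it had 4 UMIs in akt mutant and 65 in WT. In the foxa2-led endoderm-like cluster, where sema3fa is more abundant, it was at 25.2 CPM in akt mutant and 32.4 CPM in WT. The membrane-anchored ligand gene sema7a was at 1.84 CPM from 104 UMIs in akt mutant and 3.75 CPM from 199 UMIs in WT, a ratio of -1.03 (-1.39 to -0.68). Most of the UMIs of sema7a came from the ndnf-led cluster, where its ratio was -1.11 (-1.58 to -0.66). The third, sema5a, a transmembrane semaphorin gene, had 49 UMIs in akt mutant and 77 in WT, a ratio of -0.75 (-1.29 to -0.21). The call of sema5a was lost when endothelial cells were taken by a UMI of kdrl or cdh5, and that of sema7a when each cell was given equal weight. With cells thinned to 1000 UMIs both were lost and plxna1a was lower.

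The most abundant members differed little. For robo4 the log2 ratio was 0.08 (0.03 to 0.13), with 105 CPM in akt mutant and 99.4 CPM in WT, for slit3 it was 0.11 (0.05 to 0.17) and for sema3ab 0.05 (-0.01 to 0.11). The receptor gene unc5c was at 0.03 (-0.08 to 0.13), robo1 at -0.16 (-0.37 to 0.04) and robo2 at 0.18 (0.00 to 0.35). Members under the fold but with intervals below 0 included the plexin genes plxna1a, at -0.47 (-0.73 to -0.21), plxna3, at -0.32 (-0.56 to -0.08), plxnd1, at -0.30 (-0.58 to -0.03), and plxnb3, at -0.18 (-0.30 to -0.05), and the ligand genes sema3ga, at -0.42 (-0.66 to -0.19), and sema4c, at -0.27 (-0.35 to -0.18). On the other side plxnb2a was at 0.44 (0.15 to 0.73) and sema4bb at 0.45 (0.08 to 0.82). The low-depth endothelial cluster, where plxnd1 was most abundant, made up 7.49% of akt mutant and 3.42% of WT cells. There the ratio of plxnd1 was -0.51 (-0.98 to -0.05), and the part of cell composition in its pooled ratio was not tested. Within single clusters sema3ga was lower in lef1-led cells, at 15.7 CPM in akt mutant and 39.4 CPM in WT, and sema3fb in endocardium-like cells, at 23.0 CPM in akt mutant and 46.3 CPM in WT, log2 ratios of -1.33 (-1.79 to -0.88) and -1.01 (-1.39 to -0.63). In the neural-like cluster sema3fb was higher, at 27.8 CPM from 82 UMIs in akt mutant and 12.4 CPM from 65 UMIs in WT, a ratio of 1.16 (0.67 to 1.65). Those UMIs came from 38 akt mutant and 45 WT cells, and after thinning sema3fb had a UMI in 2.87% of akt mutant and 1.92% of WT neural-like cells. In the low-depth cluster outside the endothelial ones the ratio of sema3fb was 0.76 (0.13 to 1.36).

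In artery cells 1 of 17 members with at least 50 UMIs was higher, against 7.51% of all genes, and 2 were lower, against 6.71%. The higher one was again robo3, with 216 UMIs in akt mutant and 90 in WT, or 44.6 CPM and 22.3 CPM, a log2 ratio of 0.999 (0.64 to 1.37). The lower ones were sema7a, at 5.57 CPM in akt mutant and 11.6 CPM in WT, a ratio of -1.06 (-1.80 to -0.35), and plxna1a (LL0000022179), at 6.81 CPM in akt mutant and 12.9 CPM in WT, a ratio of -0.92 (-1.59 to -0.26). With the artery-like clusters in place of the artery cells the call of plxna1a was lost, and plxnd1 and sema3fa were lower as well. Just under the fold was slit3, at 54.9 CPM in akt mutant and 37.4 CPM in WT, a ratio of 0.55 (0.26 to 0.85). It passed the fold with libraries thinned to the same depths and without the cells of highest doublet score. The level of robo4 was 121 CPM in both libraries. The median log2 ratio was -0.00 over the 17 members and 0.02 over all genes. The artery marker dll4, used to choose these cells, was at 321 CPM in akt mutant and 494 CPM in WT, and its part in these ratios was not tested.

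In vein cells 2 of 27 members were higher, against 5.6% of all genes, and 2 were lower, against 12.1%. For robo3 the levels were 44.0 CPM in akt mutant and 25.7 CPM in WT, a log2 ratio of 0.77 (0.63 to 0.92), and for plxnb2a, a B-type plexin gene, 5.09 CPM in akt mutant and 3.34 CPM in WT, a ratio of 0.61 (0.18 to 1.05). The lower ones were sema3fa, at 3.40 CPM in akt mutant and 7.09 CPM in WT, a ratio of -1.06 (-1.47 to -0.67), and sema4aa, with 22 UMIs in akt mutant and 37 in WT, a ratio of -0.84 (-1.67 to -0.04). With cells thinned to 1000 UMIs and vein cells chosen again on the thinned counts, the ratio of sema3fa turned to 0.26, from fewer than the 50 UMIs required. In the vein cells chosen on the full counts, sema3fa had a UMI in 0.376% of akt mutant and 0.646% of WT cells after thinning. Calls of plxnb2a and sema4aa were lost with 2 of 3 markers and with the vein-like cluster. The vein ligand gene slit3 was at 122 CPM in akt mutant and 118 CPM in WT vein cells, a ratio of 0.05 (-0.03 to 0.13). The median log2 ratio was -0.01 over the 27 members and -0.07 over all genes. The difference between artery and vein cells in the genotype ratio was not tested.

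**Figure D5:**
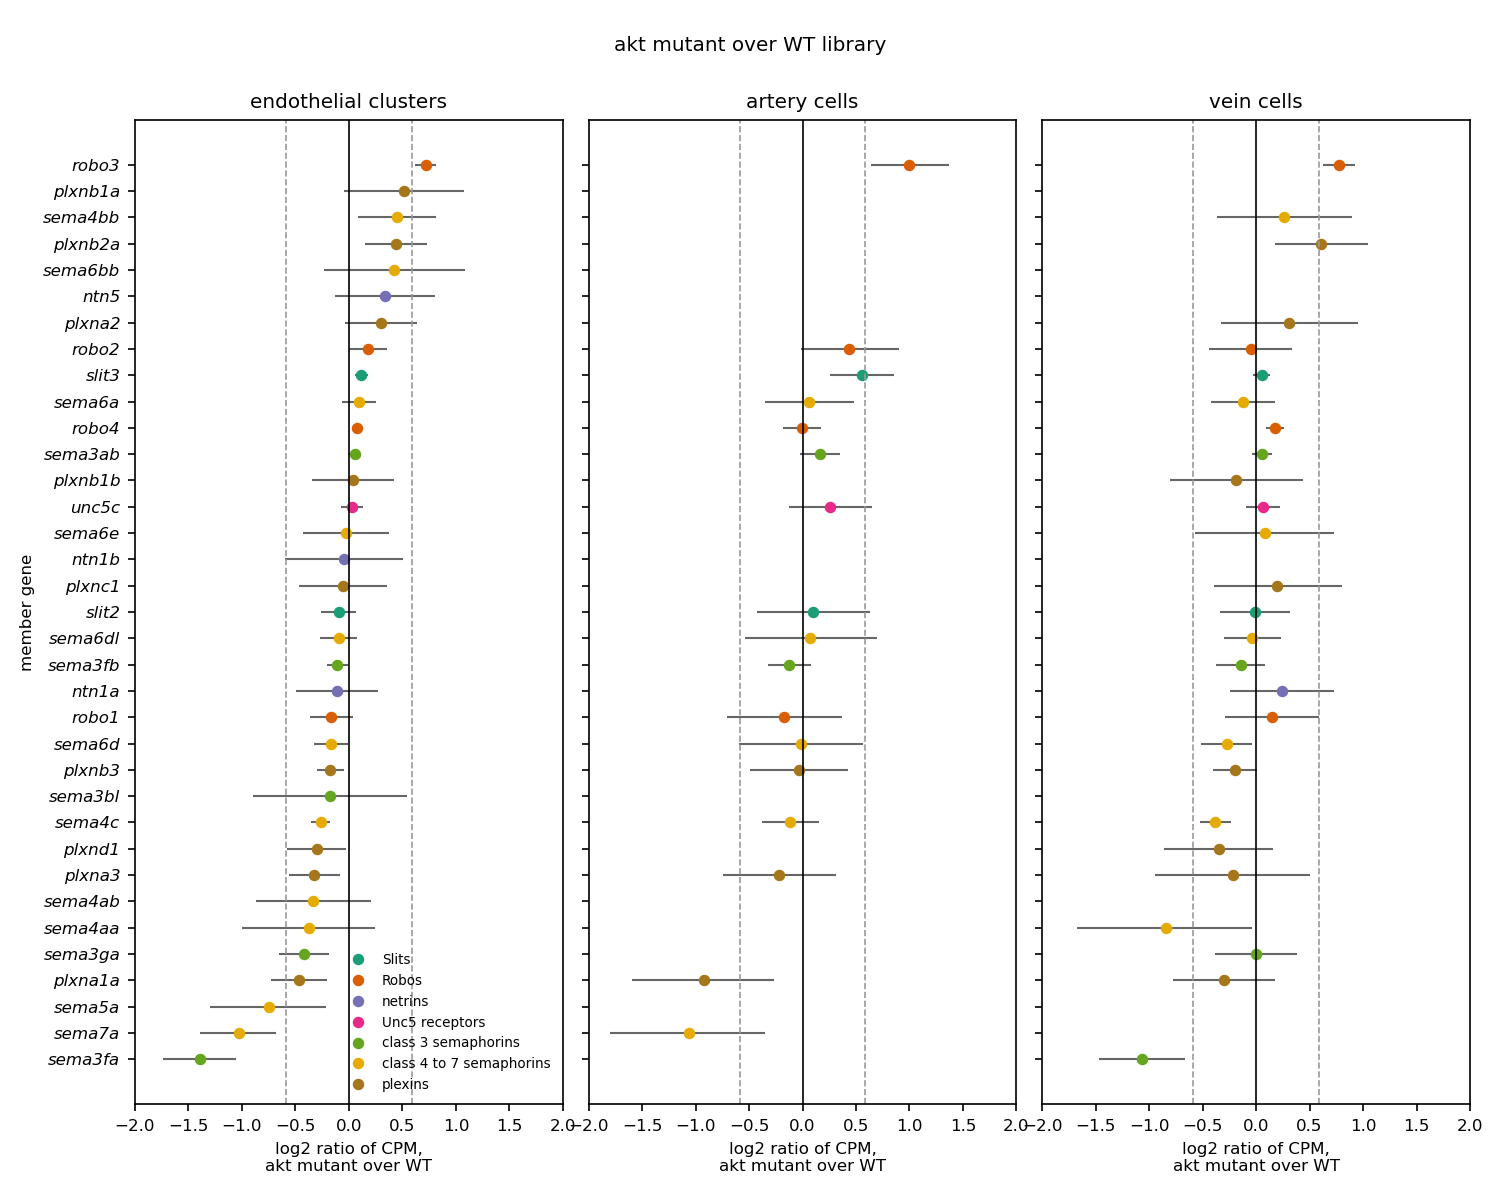
Log2 ratio of CPM, akt mutant over WT, of each member with at least 50 UMIs in endothelial clusters (left), artery cells (middle) and vein cells (right), with points coloured by role, 95% intervals from exact binomial intervals and dashed lines at 1.5-fold. Points for robo3 lie right of the upper line in the 3 panels (0.72, 0.999 and 0.77), sema3fa lies left of the lower line in endothelial clusters and vein cells (-1.39 and -1.06), and most other members lie between the lines.

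Beyond the receptors themselves, 12 of the 16 co-receptor genes were measured in endothelial clusters, and none was higher and 1, flrt1b, was lower in akt mutant by 1.5-fold. Their median log2 ratio was -0.40, against -0.07 over all genes. In vein cells, with 2 of 12 lower, the median was -0.34 against -0.07, and in artery cells, with 7 measured, it was -0.06 against 0.02. Of 37 cytoplasmic effectors of guidance, 36 were in the files and 32 were measured. Of these, 2 (mical1 and mical2a) were higher, against 6.31% of all genes, and 4, among them dpysl3, dpysl4 and srgap1a, were lower, against 12.5%. By these counts the effectors did not stand apart from all genes. The Mical protein, known from Drosophila, oxidizes actin downstream of plexin, and srgap1a encodes a GTPase-activating protein of a family that binds Robo receptors in mammals.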

How the data were processed

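The authors deposited, for each genotype, a Cell Ranger 5.0.0 matrix of whole UMI counts per gene and cell barcode, not normalized, from droplets already selected as cells. The sources used here do not name the genome build or annotation. The members and lists were chosen with earlier results of these data known. A minimum of 200 detected genes per cell and of 3 cells per gene was applied. Clustering used Seurat 5.3.0 (R 4.3.3) with a scale factor of 10000, 2000 variable genes without the members and co-receptors, 30 components and no integration, at the resolution, 0.5, whose 19 clusters came closest to the study's 21. Endothelial clusters exceeded the mean of the cluster means for kdrl and cdh5. A cluster was called X-like from marker lists, so names are rebuilt and may differ from the study's.

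UMIs were summed per class and library in Python 3.11.15 and scaled to CPM, with exact Poisson, binomial or Clopper-Pearson 95% intervals. A gene needed 50 UMIs summed over all cells compared, so it could reach this through 1 side alone. A member was counted past 1.5-fold between genotypes or 2-fold between classes in both libraries. A count of 0 allows 3 counts. Members named had 200 UMIs in the cells compared, passed a fold, or were among the 2 leading genes of their role, and the few others named were chosen after their values were seen. Doublets were kept: Scrublet (scanpy 1.11.5) called 177 cells in WT and 0 in akt mutant and was taken as not working, and an alternative removed the top 717 akt mutant and 2152 WT scores. Calculations were tested on simulated data. Alternatives covered scaling (edgeR 4.0.16 TMM), cell filter, clustering, class rules, minimum UMIs, depth, doublets, fold and weight of cells. Leaving out the low-depth clusters, the erythroid-like cells and the barcodes in both libraries, and the neural comparison, were chosen after the data were seen.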

Additional observations from a re-analysis of the deposited data

How the results depend on the processing

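No paired analysis was possible because each genotype has 1 library. The count of members past the fold between genotypes in endothelial clusters, 4, was 7 with kdrl or cdh5 cells, 7 with a minimum of 20 UMIs and 2 at 2-fold. In artery cells 3 members became 5 with a minimum of 20 UMIs, 1 with 200 UMIs and 1 at 2-fold. In vein cells 4 became 8 with 20 UMIs, 2 with 200 UMIs and 1 at 2-fold. Thinning to 1000 UMIs per cell with the artery and vein cells chosen again on the thinned counts, after which 0 members in artery cells and 3 in vein cells reached the minimum, left 0 in both. With it 0 of 7 members stayed higher and 0 of 3 lower in artery than in vein cells. In endothelial clusters against other cells 9 of 15 stayed higher and 3 of 14 lower, and plxnb1b was newly lower. In the neural-like cluster against endothelial clusters 1 of 11 stayed higher and 7 of 13 lower, while robo1 was newly higher and slit2 newly lower. Fewer genes reached the minimum after thinning. The count lower in artery cells was 1 without the highest Scrublet scores and 0 at 3-fold. Equal weight of cells gave 9 higher in endothelial clusters, and a minimum of 200 UMIs 8 lower. The neural-like count of 11 higher was 18 with 20 UMIs and 4 with 200 UMIs. These minimums change which genes are measured, and for the other settings the cause was not tested.

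The direction of single members turned in a few settings, and the cause was not tested. The genotype ratio of sema3fa in vein cells was 0.26 after thinning with the cells chosen again, under the minimum of UMIs. The artery over vein ratio of sema3ga was 0.47 in akt mutant and 0.60 in WT with 2 of 3 markers, and with clusters 2.35 in akt mutant and 1.29 in WT, and that of ntn1a with clusters was 2.002 in akt mutant and 2.27 in WT. Equal weight of cells gave -0.17 for sema3ga in endothelial clusters over other cells in akt mutant, 0.50 for plxnc1 in neural-like over endothelial cells in akt mutant and 1.22 for sema4aa in WT, and thinning gave 1.14 for plxnc1 in akt mutant. Of the remaining ratios of single members, 2401 moved by less than their interval and 409 by more. The call of robo3 higher in akt mutant was kept in endothelial clusters, artery cells and vein cells under the alternatives of scaling, cell filter, class rules, equal depths, Scrublet scores, weight of cells, low-depth cluster and shared barcodes, and was lost at 2-fold in the 3 and by thinning to 1000 UMIs in artery and vein cells chosen again on the thinned counts, where it fell under the minimum. In the vein cells chosen on the full counts and thinned, robo3 had a UMI in 4.32% of akt mutant and 2.36% of WT cells. TMM scaling moved the median of all genes between genotypes by 0.09 in endothelial clusters and 0.10 in vein cells and between endothelial clusters and other cells by -0.11. Depth limits the values of members under 50 UMIs, and with 1 library per genotype no spread between embryos can be given.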

Other observations

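Among the guidance effectors outside the members, srgap1a was at 2.12 CPM in akt mutant and 8.32 CPM in WT endothelial clusters, a log2 ratio of -1.97 (-2.28 to -1.68). On the other side mical1 was at 4.71 CPM in akt mutant and 2.02 CPM in WT, a ratio of 1.22 (0.89 to 1.56). These values come from 1 library each.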
